A study of Rattus norvegicus with 14 samples.

Results

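Choroid plexus transcripts were described in hippocampal RNA-seq libraries of the rat, by setting the libraries with little transthyretin (Ttr) against the others. The members were chosen by their measured Ttr level. All 14 libraries were split by the Ttr level: 3 lay under 400 FPKM and 11 at 400 FPKM or more. FPKM is fragments per kilobase of transcript, scaled to the library's total of mapped fragments. The low set held 1 library of each group, namely control 3, PTZ 2 and PTZ+Q808 1. Because measured Ttr made the split, the low-against-high values of every gene are given as a description, with no test. The study held 4 control rats given vehicle, 5 rats given pentylenetetrazole (PTZ, a convulsant that blocks GABA-A receptors) with vehicle, and 5 given PTZ with the compound Q808. All were wild-type Wistar rats of 180 to 220 g, and RNA came from about 100 mg of hippocampus. No age, sex or dose is given in the labels. The labels do not say how the hippocampus was separated from the tissue around it.

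The choroid plexus is a folded epithelium over a leaky, vascular core that hangs in the brain ventricles and secretes cerebrospinal fluid. Its epithelial cells make transthyretin, the carrier of thyroxine and of retinol-binding protein, at a very high level, and they carry water, ions, folate and other solutes between blood and fluid. The plexus of the lateral ventricle is attached along the edge of the hippocampus, so both tissues can be lifted out together.

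The promoter windows of 3 genes of this epithelium are shown first, as examples of genes counted lower below that share a short motif. They were not picked by size of difference alone: Kl, also with the motif, differed by more than Tmem72. Ttr defined the split, Mfrp (membrane frizzled-related protein) had the lowest low-against-high difference after it, and Tmem72 was listed at 0 in 1 low-Ttr library. Each window runs from 250 bases before to 50 bases after the annotated start, 5′ to 3′ on the gene's strand, from RefSeq (GRCr8). Capitals mark TAATC or its reverse complement GATTA, a core that homeodomain factors of the Otx type bind. The windows lie at chr18:12218508-12218807 (plus strand), chr8:53342284-53342583 (plus strand) and chr4:151645940-151646239 (minus strand).
Ttr: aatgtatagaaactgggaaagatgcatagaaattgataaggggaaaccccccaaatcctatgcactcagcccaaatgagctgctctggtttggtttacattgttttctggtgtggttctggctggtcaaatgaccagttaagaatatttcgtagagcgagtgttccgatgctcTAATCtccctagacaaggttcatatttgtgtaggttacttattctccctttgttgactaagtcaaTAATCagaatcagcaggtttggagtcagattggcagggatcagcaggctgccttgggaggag
Mfrp: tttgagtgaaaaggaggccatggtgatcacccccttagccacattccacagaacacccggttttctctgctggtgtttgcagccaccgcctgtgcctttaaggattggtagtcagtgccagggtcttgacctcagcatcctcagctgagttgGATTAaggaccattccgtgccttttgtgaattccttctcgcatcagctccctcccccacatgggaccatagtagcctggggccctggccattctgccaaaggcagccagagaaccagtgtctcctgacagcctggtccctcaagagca
Tmem72: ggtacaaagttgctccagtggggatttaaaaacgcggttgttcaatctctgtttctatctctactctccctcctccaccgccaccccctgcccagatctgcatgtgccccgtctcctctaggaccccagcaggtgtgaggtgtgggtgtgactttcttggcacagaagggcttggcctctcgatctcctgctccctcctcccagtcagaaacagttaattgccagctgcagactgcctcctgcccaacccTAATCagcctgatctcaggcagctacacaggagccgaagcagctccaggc
Of the 37 genes counted lower in the low-Ttr libraries, 28 had a window in the RefSeq table, and 14 of these held the motif on either strand. Of all 27457 genes with a window, 24.0% held it. Among the choroid plexus genes counted lower, 6 of 13 with a window did: Ttr, Mfrp, Tmem72, Kl, Kcnj13 and Slco1a5. The motif was chosen after these windows had been read, so its share is a description of the windows and no evidence of a bound factor. No window was matched for Folr1, Cldn2, Clic6 or Sostdc1.

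The libraries were otherwise alike in size. The relative depth, read from the steps between the low FPKM values, was 0.956 to 1.04 of that of control 1 in the low-Ttr libraries and 0.856 to 1.01 in the others. The genes at 1 FPKM or more numbered 12219 to 12443 and 12215 to 12756. Absolute depth is unknown. Y-linked transcripts summed to 36.9 to 58.6 FPKM in 8 libraries and to at most 0.788 FPKM in 6, and both kinds occurred in the low set (2 and 1) and in the high set (6 and 5). Control 2 stood apart in striatal markers and PTZ+Q808 3 in pituitary markers. Nothing in the labels says that the libraries of a group share an animal or a day, so p-values measure the spread between these samples.

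Ttr was at 54.5 FPKM in control 3, 113 FPKM in PTZ 2 and 329 FPKM in PTZ+Q808 1. In the other libraries it ran from 1315 FPKM in PTZ+Q808 5 through a median of 4616 FPKM to 7125 FPKM in control 2. The 329 FPKM just inside the threshold and the 1315 FPKM just outside it differ 3.99-fold. Ttr made up 0.0136% to 0.0843% of all FPKM in the low set and 0.329% to 1.77% in the high set.

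The other defining markers followed the same split. Folr1, the folate receptor that moves folate into cerebrospinal fluid, was at 0.876 FPKM in control 3, 1.32 FPKM in PTZ 2 and 1.99 FPKM in PTZ+Q808 1. Its level in the 11 high-Ttr libraries was 5.19 FPKM at the lowest, 19.0 FPKM at the median and 34.6 FPKM at the highest. Cldn2, the pore-forming claudin of a leaky epithelium, was at 0.239, 0.558 and 1.33 FPKM in the same 3 libraries, against 3.53, 14.7 and 28.7 FPKM. Both genes were well below their high-set range in every low-Ttr library. Clic6, of the chloride intracellular channel family, was at 0.741, 1.45 and 2.03 FPKM, against a lowest of 3.74, a median of 22.2 and a highest of 42.6 FPKM. Sostdc1, a secreted antagonist of BMP and Wnt signals, was at 0.562, 0.767 and 1.74 FPKM, against 4.66, 24.2 and 41.6 FPKM. For each of these 4 genes the highest low-Ttr library was PTZ+Q808 1 and the lowest high-Ttr library was PTZ+Q808 5, and these neighbours differed 1.84-fold (Clic6) to 2.68-fold (Sostdc1). The low set kept 6.92% of the high-set median of Folr1, 3.80% of Cldn2, 6.55% of Clic6 and 3.17% of Sostdc1, comparing medians, and 2.45% of Ttr. In bulk tissue, fewer epithelial cells and less RNA per cell cannot be told apart.

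**Figure D1:**
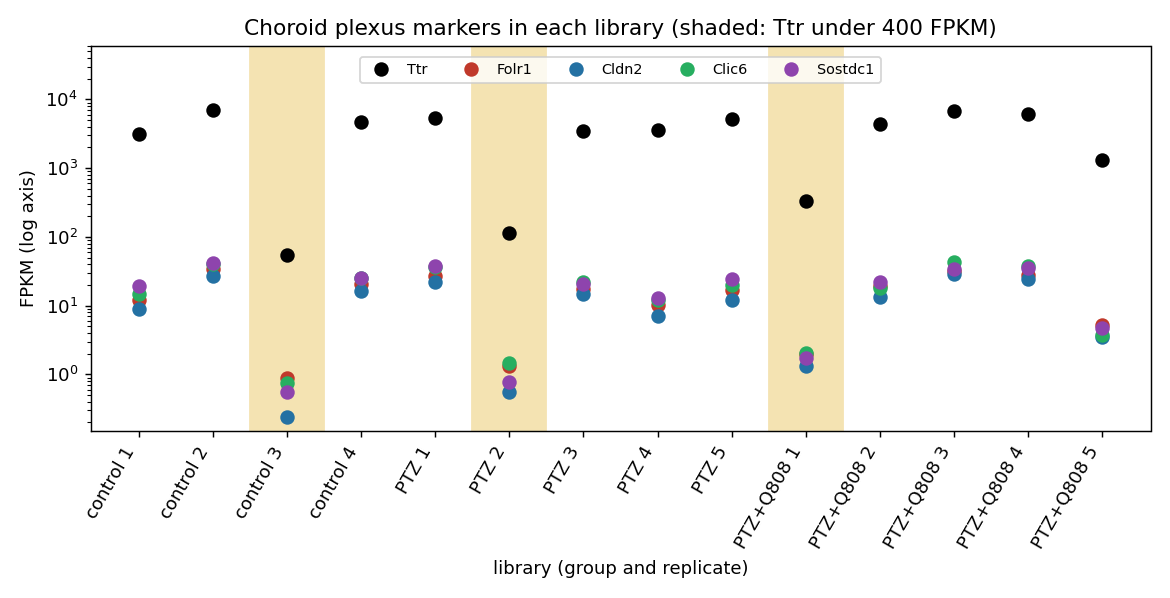
FPKM on a log axis of Ttr, Folr1, Cldn2, Clic6 and Sostdc1 in each of the 14 libraries, with 1 point per gene and library; shading marks the 3 libraries with Ttr under 400 FPKM. All 5 genes are lowest in the shaded libraries, and PTZ+Q808 5, with Ttr at 1315 FPKM, is the lowest of the others.

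Differences below are of log2(FPKM + 1), low minus high, with the treatment group as a term, so that each low-Ttr library is set against the rest of its own group. This scale understates the change of genes near 0. A gene was counted lower when all 3 low-Ttr libraries lay below all 11 others and the difference was -1 or less. Of 12899 genes with at least 1 FPKM in at least 3 libraries, 37 (0.287%) were counted lower and 0 higher (0.0%). The 4 lists of choroid plexus genes held 56 members, of which 51 passed that filter and 1 was listed at 0 throughout. They supplied 19 of the 37 genes. Both counts include Ttr, which is lower by the rule itself, and are 18 and 36 without it. Of all 56 members, filtered or not, 28 had no overlap between the sets, with all low-Ttr libraries below (27 of 55 without Ttr). Over the 12899 filtered genes 113 (0.876%) did. None of the members lay above in all 3, against 23 genes (0.178%) over all. The median difference was -0.92 over the list members, filtered or not (-0.90 without Ttr), and 0.00 over the 12899 filtered genes. Since the split used Ttr and these counts come from the same contrast, nothing is read from their excess.

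Among secreted products, 5 of 12 listed genes were counted lower: Ttr (by the rule itself), Sostdc1, Kl, F5 and Enpp2. Kl (Klotho, a co-receptor for FGF23 that is also shed into the fluid) was at 0.548 FPKM in control 3, 0.871 in PTZ 2 and 1.78 in PTZ+Q808 1, against 2.58 to 32.0 FPKM with a median of 16.5, a difference of -2.99. F5 (coagulation factor V) was at 0.169, 0.259 and 0.824 FPKM, against 1.504 to 21.4 FPKM. Both were close to 0 in the low set. Enpp2 (autotaxin, which makes lysophosphatidic acid) behaved otherwise: it was still at 46.7, 63.6 and 60.2 FPKM, which is 24.5% of the high-set median of 246 FPKM, and the high set began at 86.3 FPKM. Enpp2 is also made by oligodendrocytes. The growth factor Igf2 overlapped between the sets, with 14.02, 46.1 and 63.9 FPKM against 18.3 to 122 FPKM. Its binding protein Igfbp2 overlapped as well, with 27.4, 70.1 and 80.3 FPKM against 35.1 to 201 FPKM. Both are also made by the meninges. Ace (angiotensin-converting enzyme) missed the count by 1 overlap: PTZ+Q808 1 at 5.56 FPKM lay above PTZ+Q808 5 at 5.21 FPKM, and its difference was -1.98. Another ACE-like gene, LOC102556346, was counted lower (-1.89). Whether reads were split between the pair was not tested.

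Among transporters and channels, 8 of 22 were counted lower: Folr1, Clic6, Aqp1, Kcnj13, Kcne2, Slc4a5, Slco1a5 and Steap1. Aqp1, the apical water channel, was at 0.758, 1.32 and 1.99 FPKM in control 3, PTZ 2 and PTZ+Q808 1, against 2.67 to 26.1 FPKM with a median of 12.6. Slc4a5, a sodium-bicarbonate cotransporter, was at 0.237, 0.539 and 1.15 FPKM, against 2.29 to 25.8 FPKM, a difference of -2.98. Kcnj13, the inward rectifier Kir7.1, was at 0.553, 0.998 and 1.78 FPKM, against 2.44 to 23.3 FPKM. These 3 genes had their highest low-Ttr value in PTZ+Q808 1 and their lowest high-Ttr value in PTZ+Q808 5, like the defining markers. Kcne2, a potassium channel beta subunit, had a difference of -2.20, and Slco1a5, an organic anion transporter, had -1.56. Slco1a5 has close paralogs that could share its reads, which was not tested. Other transporters were not counted. Slc12a2 (the chloride importer NKCC1) did not overlap, at 15.1 to 17.3 FPKM against 18.6 to 29.6 FPKM, but its difference was only -0.42. Slc4a2 (an anion exchanger) had -0.999 with 1 overlap, since PTZ+Q808 5 was lowest of all at 5.32 FPKM. Trpv4, a cation channel, did not overlap and stood just short of the threshold at -0.99. Slc46a1, the proton-coupled folate transporter, was at 3.85 to 4.29 FPKM in the low set and 3.02 to 4.12 FPKM in the high set.

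Among junction and structural genes, 4 of 13 were counted lower. Besides Cldn2 these were Prr32 (-2.68), Tmem72 (-2.27) and Krt18 (-1.47), a keratin of simple epithelia. Tmem72, a membrane protein, was listed at 0 in control 3 and at 0.144 and 0.487 FPKM in PTZ 2 and PTZ+Q808 1, against 0.565 to 9.37 FPKM. The gap between its sets was narrow, 0.487 against 0.565 FPKM. Krt8, the partner of Krt18, did not overlap, with 1.33 to 2.65 FPKM against 3.22 to 7.70 FPKM and a difference of -0.93. Calml4 and Spint2 did not overlap either (-0.87 and -0.41), while the adhesion gene Perp did (0.08).

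Of 9 transcription factors and receptors, Mfrp and Msx1 were counted lower. Mfrp was at 0.321, 1.03 and 2.77 FPKM in control 3, PTZ 2 and PTZ+Q808 1, against a lowest of 6.62, a median of 27.4 and a highest of 54.0 FPKM, and its difference of -3.73 was the lowest of the 55 list members other than Ttr. Msx1, a homeobox factor of the dorsal midline, was at 3.78, 5.33 and 5.16 FPKM, against 7.32 to 20.02 FPKM. Htr2c, the serotonin receptor that is abundant in plexus epithelium and also made by neurons, did not overlap but differed by only -0.61: the low set was at 18.3 to 22.3 FPKM and the high set at 23.7 to 47.8 FPKM. Lmx1a, a roof plate factor, and Prlr, the prolactin receptor, were below in all 3 low-Ttr libraries, at 0.0787 to 0.121 FPKM and 0.0266 to 0.0378 FPKM. Igf2r, the receptor that clears IGF2, was at 8.63 to 9.69 FPKM in the low set and 6.99 to 11.1 FPKM in the high set. Otx2, the homeodomain factor that defines this epithelium in development, was listed at 0 in all 14 libraries; a listed 0 can come from the annotation or a failed estimate, so no level is read from it.

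**Figure D2:**
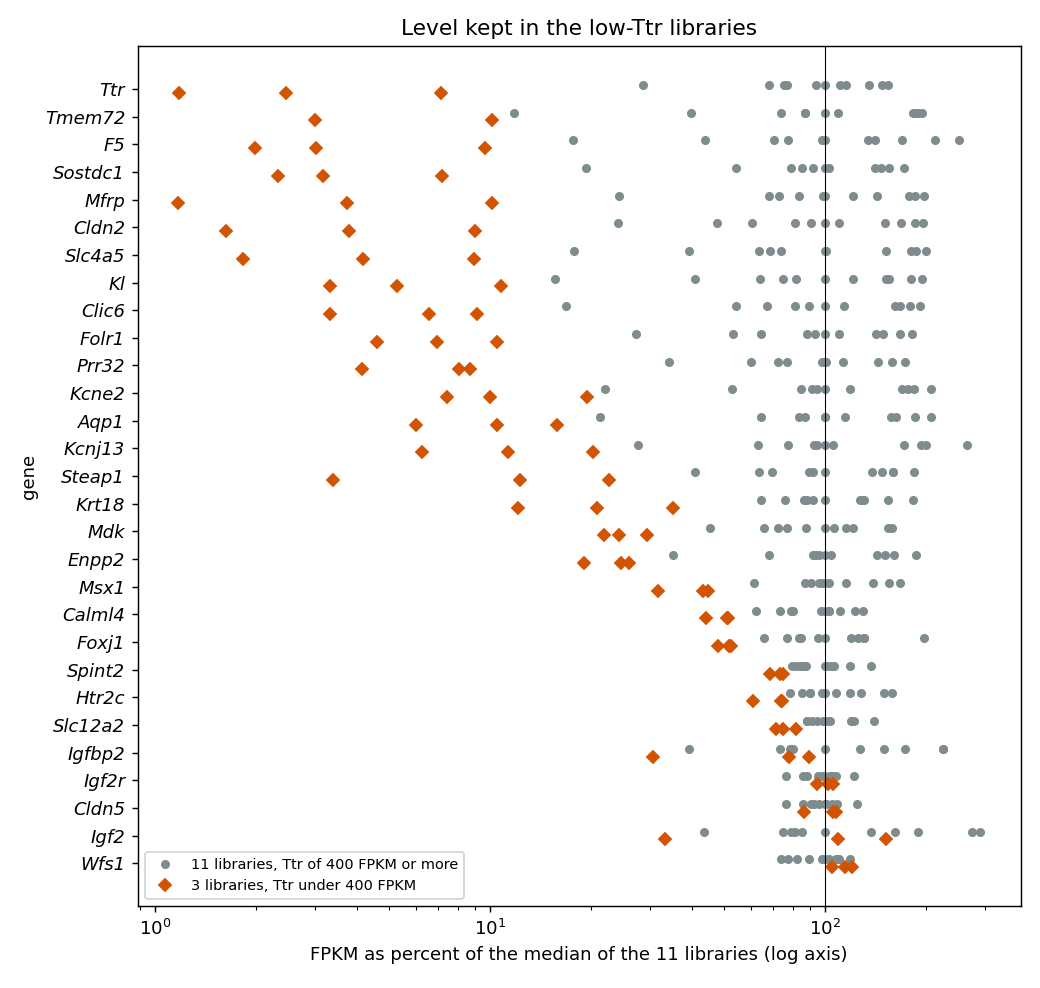
FPKM of choroid plexus and comparison genes in each library as percent of the median of the 11 high-Ttr libraries (log axis), ordered by the share kept; orange diamonds are the 3 low-Ttr libraries and grey points the other 11. The value of 0 for Tmem72 in control 3 cannot be drawn. Sostdc1 kept 3.17% and Mfrp 3.74% at the median, Enpp2 kept 24.5%, and Igf2 and Igf2r overlapped between the sets. Cldn5 (barrier endothelium), Wfs1 (CA1 neurons) and Foxj1 (motile cilia) stand for other cells.

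Outside the 4 lists, 18 genes were counted lower, 15 of them with a gene name. Glycam1, a mucin-like glycoprotein, was listed at 0 in PTZ 2 and PTZ+Q808 1 and at 0.195 FPKM in control 3, against 3.57 to 51.3 FPKM, a difference of -3.23. Scgb1c1, a secretoglobin, was at 0.991, 0.587 and 0.511 FPKM in control 3, PTZ 2 and PTZ+Q808 1, against 5.23 to 18.0 FPKM. Both separated the sets by wide gaps. Tmem27 (collectrin, a partner of amino acid transporters in kidney) was at 0.0961, 0.319 and 0.495 FPKM, against 1.41 to 11.7 FPKM. Mdk (midkine, a heparin-binding growth factor) was at 12.1, 13.5 and 16.3 FPKM, against 25.1 to 87.5 FPKM with a median of 55.5. Cox8b, a cytochrome c oxidase subunit, had a difference of -1.95, Adipoq (adiponectin) -1.37, Pla2g5 (a secreted phospholipase) -1.28, Cdh3 (P-cadherin) -1.24 and Vat1l -1.20. Adipoq, Pla2g5 and Cdh3 had narrow gaps near 0. The highest low-Ttr and lowest high-Ttr values were 0.197 and 0.400, 0.357 and 0.440, and 0.375 and 0.468 FPKM. Like Glycam1, Scgb1c1 and Tmem27, they passed the filter only through the high-Ttr libraries. Ndufa1, a complex I subunit, was counted at -1.18 through control 2 (78.0 FPKM), PTZ 4 (25.3 FPKM) and PTZ 5 (28.2 FPKM), while the other 11 libraries lay between 2.79 and 4.63 FPKM.

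Whether the same genes followed Ttr was tested where the split had not been used, within the 11 high-Ttr libraries. Each gene was regressed on log2(Ttr FPKM + 1) with the treatment group as a term (limma, trended prior variance, 7 residual degrees of freedom, Benjamini-Hochberg adjustment over 12619 genes). A slope of 1 means that a gene changed by the same fold as Ttr on this scale. With an adjusted p under 0.05, 32 genes (0.254%) rose with Ttr and 0 (0.0%) fell. The falling gene of smallest p was Fam111a (slope -0.81, adjusted p = 0.0858), which did not pass in limma, and neither did Tbcb, Mex3b, B4gat1 or Atoh7. Of 50 choroid plexus genes tested, 19 rose. Regardless of the threshold, 48 of 50 had a positive slope, against 57.3% of all genes, and 42 of 50 had an unadjusted p under 0.05, against 6.13% of all. The lists and the given markers were chosen with earlier results of these data known, so these shares are a description. The median slope was 0.53 over the lists and 0.01 over all genes. Slopes of this size were not limited to the choroid plexus lists: the median was 0.58 over 10 striatal genes (10 positive), 0.56 over 3 blood genes (3 positive), 1.12 over 3 Y-linked genes (3 positive) and 0.29 over 19 meningeal genes (18 positive), with 0 passing in each of these lists. It was -0.58 over 10 immediate early genes (0 positive), again with 0 passing. The striatal sum was 842 FPKM in control 2, the library with the most Ttr, and 82.9 to 154 FPKM in the other high-Ttr libraries. Of the 36 genes counted lower other than Ttr, 22 rose here (61.1%), which is 68.8% of the 32. Both readings rest on measured Ttr and share these 11 libraries, so nothing is read from this overlap.

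The 4 given markers all rose, with slopes near or above 1. Folr1 had a slope of 1.04 ± 0.108 (SE; limma adjusted p = 0.00216) and Cldn2 of 1.14 ± 0.139 (adjusted p = 0.00684). Clic6 had 1.30 ± 0.129 (adjusted p = 0.00216) and Sostdc1 1.14 ± 0.103 (adjusted p = 0.00104). Mfrp (1.17, adjusted p = 0.000209), Kl (1.27, adjusted p = 0.0209) and Aqp1 (1.10, adjusted p = 0.00216) were similar in limma. Slopes were shallower for Enpp2 (0.91), Prr32 (0.86), Slc4a2 (0.67), Trpv4 (0.60) and Krt18 (0.48), which also rose. Ace rose despite the overlap between the sets (1.09, adjusted p = 0.0276). F5 (1.14, adjusted p = 0.0924), Msx1 (0.49, adjusted p = 0.0618), Igfbp2 (0.98, adjusted p = 0.0576) and Igf2 (0.98, adjusted p = 0.206) did not pass in limma.

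Among genes outside the lists 13 rose, and Tmem27 had the smallest p of all: its slope was 0.96 ± 0.053 (SE; limma adjusted p = 3.9e-05). Mdk (0.74), Cdh3 (0.69), Adipoq (0.78), Col8a2 (a basement membrane collagen, 0.72), Cab39l (0.34), Bhmt2 (0.77), Stard5 (0.49), Spata6 (0.31) and the sulfatase Sulf1 (0.57) rose too. Glycam1 and Scgb1c1, which separated the low from the high set so widely, did not pass: Glycam1 had a slope of -0.30 (adjusted p = 0.954) and its 2 highest libraries were PTZ+Q808 3 (51.3 FPKM) and PTZ+Q808 5 (27.7 FPKM), the latter with the lowest Ttr of the 11. Scgb1c1 had a slope of 0.45 (adjusted p = 0.736).

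These calls depended on single libraries: 14 genes rose without control 1, 15 without control 2, 14 without PTZ+Q808 3 and 3 without PTZ+Q808 5, the library with the least Ttr of the 11. The 3 genes were Prr32, Steap1 and Tmem27, and without both PTZ+Q808 5 and control 2, the 2 libraries farthest from the median in Ttr, 0 passed. All 32 genes had a positive slope without PTZ+Q808 5, with a median of 1.02 against 0.79 with it, and so did all 31 that could be tested without both libraries, with a median of 0.93. The 32 had been picked for a rising slope in a fit that held these same libraries. Their kept sign was thus largely fixed in advance, and nothing is read from it. In that last fit Folr1 had a slope of 1.15, Cldn2 1.35, Clic6 1.45 and Sostdc1 1.15, each with a limma adjusted p of 0.784.

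**Figure D3:**
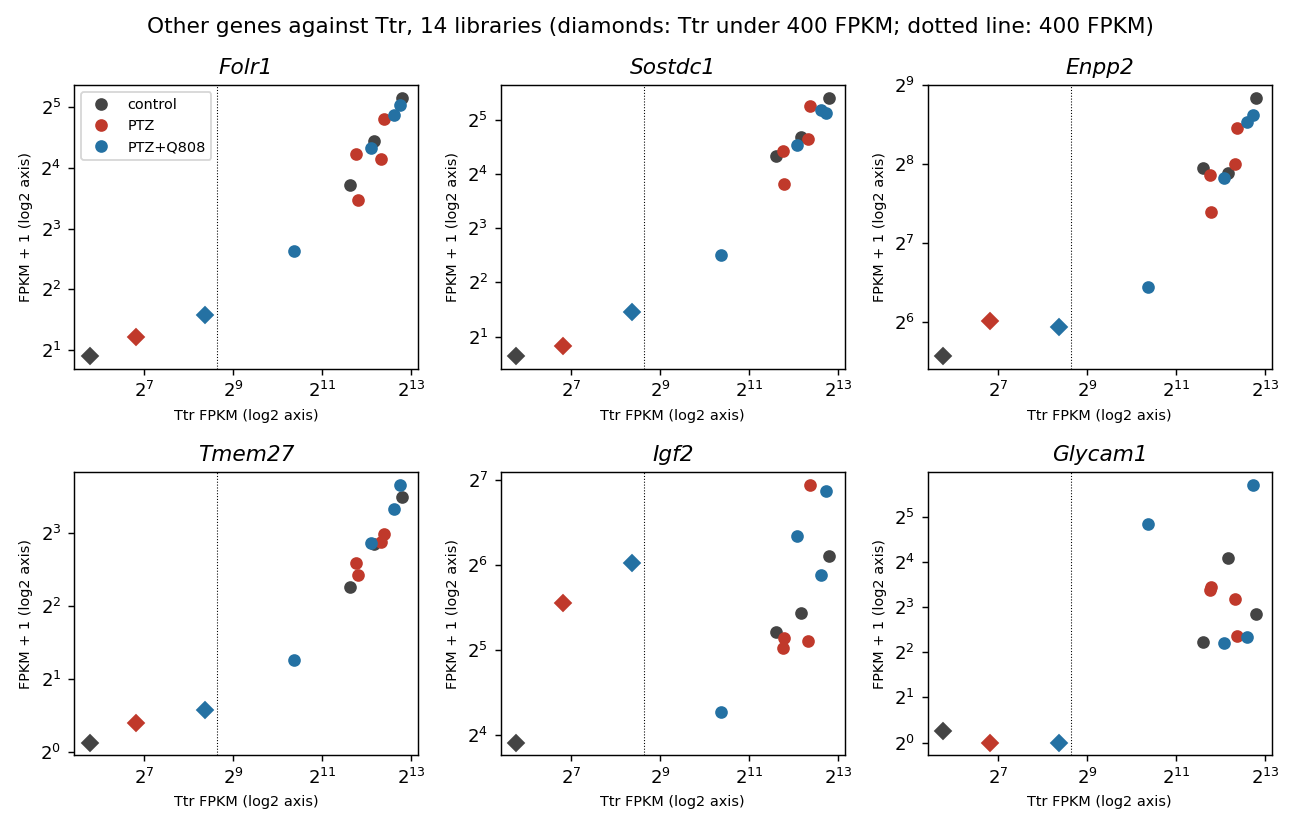
FPKM + 1 of 6 genes against Ttr FPKM (both log2 axes) in 14 libraries, coloured by group; diamonds are the 3 libraries under 400 FPKM of Ttr, circles the other 11, and the dotted line is at 400 FPKM. Folr1, Sostdc1 and Tmem27 follow Ttr in the 11 libraries, Enpp2 levels off in the low-Ttr libraries at 46.7 to 63.6 FPKM, and both of the highest Glycam1 values, 51.3 and 27.7 FPKM, lie among the 11 libraries, at Ttr of 6824 and 1315 FPKM.

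The ratio to Ttr was also compared. Per 100 FPKM of Ttr there were 0.284 to 0.509 FPKM of Folr1 in these 11 libraries and 0.605 to 1.61 FPKM in the low set. Mfrp kept nearly the same ratio in both, with 0.504 to 0.784 against 0.589 to 0.907 FPKM. Enpp2 did not: it went from 4.70 to 7.84 FPKM per 100 FPKM of Ttr in the high set to between 18.3 and 85.8 FPKM in the low set. Igf2 went from 0.653 to 2.30 FPKM up to between 19.4 and 40.7 FPKM.

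Markers of other cells were summed in each library. Of 20 genes of ependyma and motile cilia, which line the same ventricle, 4 lay lower in all 3 low-Ttr libraries and 1, Cfap126, was counted lower. Over the 12899 genes passing the filter, these shares were 0.876% and 0.287%. Foxj1, the master regulator of motile cilia, was at 3.37 to 3.68 FPKM in the low set and 4.62 to 13.9 FPKM in the high set. The ependymal sum was 46.2 to 68.3 FPKM against 62.7 to 114 FPKM, its median difference was -0.27, and 0 of 13 ependymal genes tested passed for a slope on Ttr. Of these 13 slopes 12 were positive, with a median of 0.17, and 6 had an unadjusted p under 0.05. Over all genes 57.3% of slopes were positive and 6.13% had such a p. Markers of meningeal fibroblasts summed to 1099 to 2316 FPKM in the low set and 528 to 3028 FPKM in the high set. Of these 20 genes 19 had a positive difference, against 6640 of 12899 genes over all. Their median difference was 0.42, and none separated the sets. Macrophage markers summed to 27.1 to 40.1 FPKM against 10.3 to 45.1 FPKM. Markers of barrier endothelium summed to 159 to 201 FPKM against 160 to 217 FPKM. The 3 genes of fenestrated endothelium, the vessel type of the plexus core, summed to 5.70 to 6.73 FPKM against 5.33 to 10.96 FPKM. Hippocampal neuron markers summed to 493 to 501 FPKM against 407 to 548 FPKM. Of these 12 genes 11 had a positive difference, with a median of 0.08, and 1 of 11 tested had a positive slope on Ttr. All 8 neocortical genes had a positive difference, and all 11 striatal and all 6 oligodendrocyte genes a negative one. None of these genes separated the sets. Immediate early genes summed to 336 to 1118 FPKM against 147 to 1387 FPKM, all 10 with a positive difference and a negative slope and none called. The part of these markers in the values above was not tested.

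**Figure D4:**
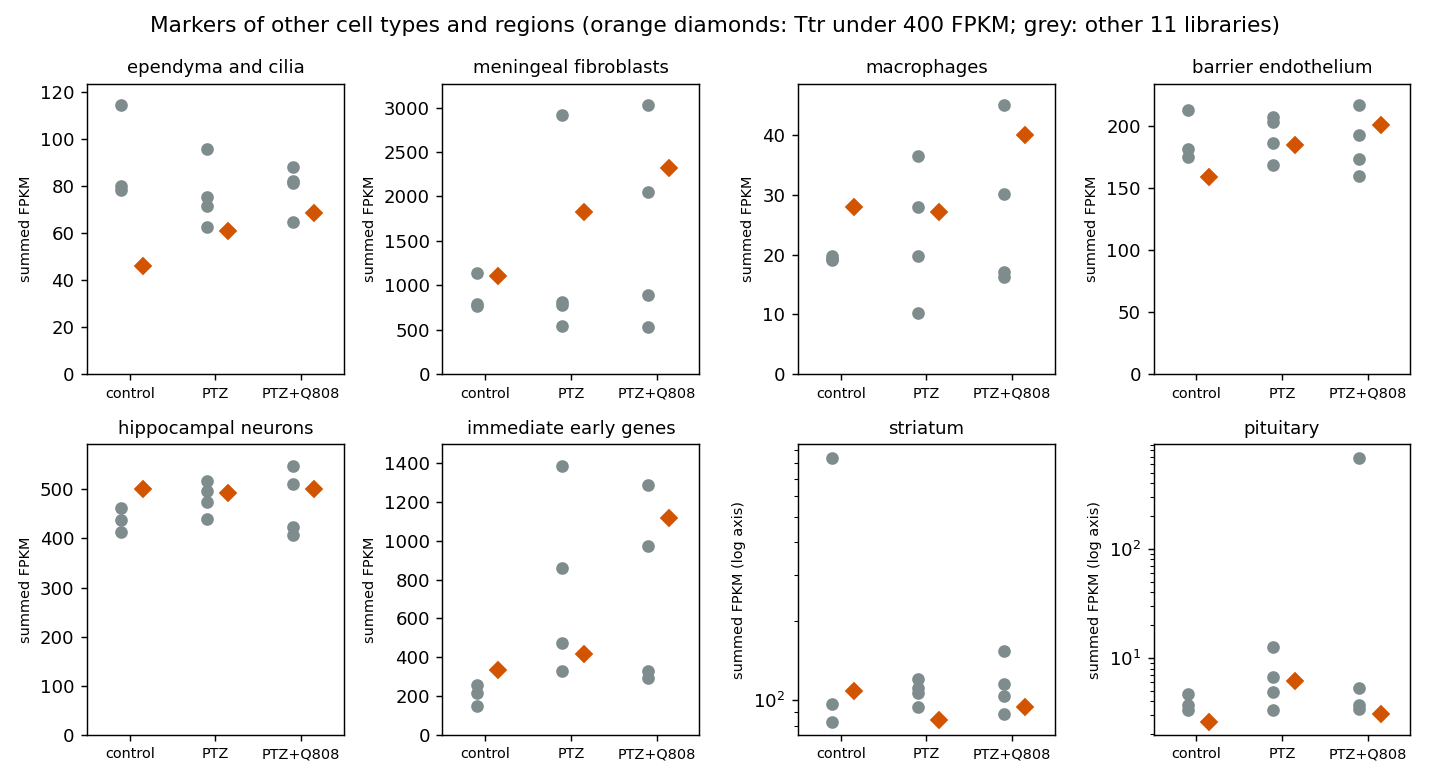
Summed FPKM of 8 marker lists by treatment group (striatum and pituitary on log axes), 1 point per library; orange diamonds are the low-Ttr libraries, grey points the others. The ependymal sum is lowest in the low-Ttr library of control and of PTZ, the meningeal and macrophage sums overlap, and control 2 (striatum, 842 FPKM) and PTZ+Q808 3 (pituitary, 687 FPKM) stand apart.

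Choroid plexus genes were among the most variable within treatment groups. Of 12744 genes with at least 1 FPKM in at least 4 libraries, Ttr had the largest within-group SD. It was 2.48 on the log2(FPKM + 1) scale against a median of 0.138. With all 14 libraries, 10 of the top 20, 16 of the top 50 and 19 of the top 100 genes were on the choroid plexus lists. Without the 3 low-Ttr libraries, 0 of the top 20, 1 of the top 50 and 13 of the top 100 were. Ttr then ranked 151 with an SD of 0.760. Ranks over all libraries restate the split.

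The treatment groups did not differ detectably in these genes. Ttr was at 3733 ± 2954 FPKM in control (SD, n = 4), 3516 ± 2086 FPKM in PTZ (n = 5) and 3808 ± 2897 FPKM in PTZ+Q808 (n = 5). Without the low-Ttr library of each group it was at 4959 ± 2016 (n = 3), 4367 ± 988 (n = 4) and 4678 ± 2479 FPKM (n = 4). Folr1 was at 17.1 ± 14.2, 14.6 ± 9.55 and 17.2 ± 13.3 FPKM in the 3 groups, and Sostdc1 at 21.5 ± 16.9, 19.2 ± 13.6 and 19.6 ± 15.9 FPKM. In a 3-group limma fit of all genes, the Ttr change was 0.42 ± 1.46 (log2, SE) for PTZ against control, 0.21 ± 1.38 for PTZ+Q808 against PTZ and 0.64 ± 1.46 for PTZ+Q808 against control. Of 51 choroid plexus genes, 0 passed in any of the 3 comparisons and 0 had an unadjusted p under 0.05. Over all 12744 genes, 4 (0.0314%), 0 (0.0%) and 366 (2.87%) passed, and 8.11%, 6.14% and 20.7% had an unadjusted p under 0.05. The smallest adjusted p of a choroid plexus gene was 0.711, 0.838 and 0.370. The signs depended on the low-Ttr libraries. Without these 3 libraries the Ttr changes were -0.13, -0.12 and -0.25 in the same order. Positive changes then numbered 9, 30 and 18 of 51 choroid plexus genes, against 33, 34 and 35 with all libraries, and 0 passed. The first and last comparisons share the control libraries, and the first 2 share the PTZ libraries.

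The count over all genes in the last comparison depended on which libraries were kept. Of the 366 genes called in PTZ+Q808 against control, 0 passed without the 3 low-Ttr libraries, with a smallest limma adjusted p of 0.0695. That fit also held fewer samples per group, and leaving out 3 other libraries was not tried. Whether low Ttr itself mattered to the count was therefore not tested. All 365 of them that could be tested kept their direction, and their median absolute log2 change was 0.36 without these libraries and 0.38 with them. The 366 had been picked in a fit that held the same remaining libraries. Kept directions and sizes were thus largely fixed in advance, and nothing is read from them. Leaving out 1 library moved the count less far, but by more than 1.5 times in several cases: it was 40 without control 3 and 32 without PTZ+Q808 1, both low in Ttr, but also 17 without control 1, 54 without control 4, 72 without PTZ+Q808 3, 38 without PTZ+Q808 5 and 673 without PTZ+Q808 4. With log2 Ttr as a covariate in all 14 libraries, 316 genes passed, 292 of them shared with the 366. None of the 366 was on a choroid plexus list.

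**Figure D5:**
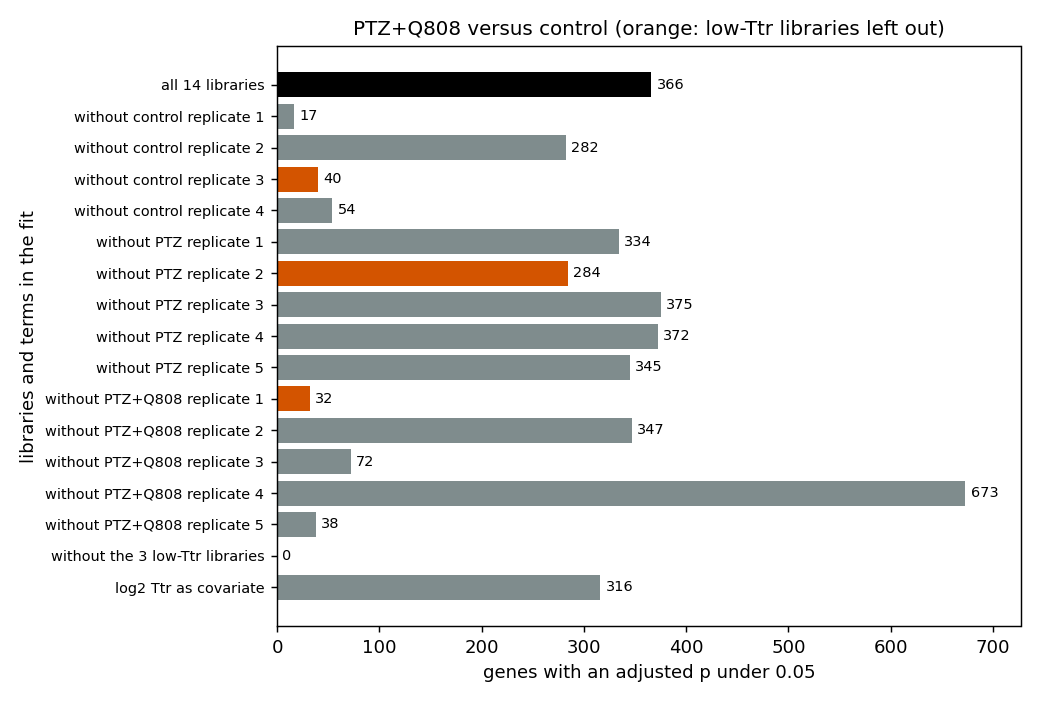
Genes with a limma adjusted p under 0.05 in PTZ+Q808 against control, for all 14 libraries (black), without each library in turn, without the 3 low-Ttr libraries and with log2 Ttr as a covariate; orange marks fits without low-Ttr libraries. The count is 366 with all libraries, 0 without the 3, 316 with the covariate and 17 to 673 when 1 library is left out.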

How the data were processed

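The authors deposited 1 table per library with FPKM per gene for 22601 genes. Per the submitters' processing notes the tools included Trimmomatic, HISAT2, Bowtie2, SAMtools, StringTie, Cufflinks, HTSeq and DESeq; the genome build is not given in the sources used here. Poly(A) RNA was captured with beads and sequenced on a BGI T7, per the labels' protocols. FPKM is relative: a share taken by one gene lowers the others. Absolute read counts are unknown, so relative depth was taken as the commonest ratio of low values over 3389 genes. Symbols read as dates (12) were restored by gene ID.

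Values were analysed as log2(FPKM + 1). Low-against-high differences are least-squares estimates with the treatment group as a term, with no test. Slopes on Ttr and treatment contrasts were fitted over all genes with limma 3.58.1 in R 4.3.3 (trended prior variance, Benjamini-Hochberg adjustment), with at least 1 FPKM in at least 4 libraries, and the scripts were tested on simulated data. Named genes were the 5 given markers, the most abundant, counted or called list members, and the most extreme genes outside the lists. The members, lists (20 lists, 195 genes) and tests were chosen with earlier results of these data known. Alternatives varied the pseudocount, filter, scaling, group term, predictor, covariate and libraries.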

Additional observations from a re-analysis of the deposited data

Results flagged for a closer look

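In 60 sets of 4 or 5 libraries of a treatment group (20 summed lists and levels in 3 groups), 6 held a library whose gap to its nearest neighbour was large for the range of its group. The cut-offs used flag about 1 in 20 sets of independent, normally distributed values. The sets here share libraries and hold FPKM levels or sums, so no excess is read from the 6. None of the 5 choroid plexus markers held such a library. The macrophage list summed to 28.0 FPKM in control 3, a low-Ttr library, against 19.2 to 19.8 FPKM in the other controls. The striatum list summed to 842 FPKM in control 2, against 82.9 to 108 FPKM in the other controls. The pituitary list summed to 687 FPKM in PTZ+Q808 3, against 3.06 to 5.31 FPKM in its group. PTZ 1 had a thalamus and habenula sum of 51.7 FPKM, against 18.3 to 23.8 FPKM in its group, and a fenestrated endothelium sum of 10.96 FPKM, against 5.87 to 6.66 FPKM. The oligodendrocyte list summed to 5419 FPKM in PTZ 5, against 3638 to 3905 FPKM in its group. These values carry no test, and their part in the choroid plexus results was not tested.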

How the results depend on the processing

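The count of genes lower in the low-Ttr libraries was 60 with a pseudocount of 0.1 and 66 with a 1.5-fold threshold, and the count of higher genes was 0 to 5 when 1 library was left out. Genes rising with Ttr numbered 18 with no filter, 20 with a minimum of 5 FPKM, 67 with the mean of Folr1, Cldn2, Clic6 and Sostdc1 as predictor, 0 without PTZ+Q808 5 and control 2, and 3 to 37 when 1 library was left out; falling genes numbered 0 to 1. PTZ against control gave 1 gene with no filter, 2 with the Ttr covariate and 1 to 5 when 1 library was left out. PTZ+Q808 against PTZ gave 2 with no filter. PTZ+Q808 against control gave 190 with no filter, 0 without the 3 low-Ttr libraries and 17 to 673 when 1 library was left out. Fewer samples enter the fits that leave libraries out; for the other settings the cause was not tested. The replicate numbers are shared by the groups but did not pair the libraries: the correlation of deviations was -0.28 to 0.143 over 13 same-numbered pairs, over 0.1 in 2 of them, and 0 libraries matched best with their own number. With a replicate block, 2 genes rose with Ttr, 0 passed in PTZ against control and 4 in PTZ+Q808 against control. Among slopes that did not pass, that of Glycam1 ranged from -0.90 to 0.71, that of Tbcb from -1.11 to 0.0229 and that of B4gat1 from -0.53 to 0.0659 when 1 library was left out, each turning positive without PTZ+Q808 5. Without PTZ+Q808 5 and control 2 they were 1.49, 0.0331 and 0.126, and that of Perp was 0.15. FPKM without read counts limits precision for genes near 0, such as Slco1a5 or Tmem72 in the low set.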
